A study of Homo sapiens with 18 samples.

Results

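Newly made RNA in the nuclear pellet was compared with newly made RNA in the cytoplasmic supernatant of breast cancer cells after degradation of the BET proteins. The comparison used 6 of the 18 libraries of the study, 3 nuclear and 3 cytoplasmic, all from cells given JQ1-VHL. The libraries were chosen by their labelled treatment and cellular fraction, and all genes in the deposited table were described, of which 10191 of 12755 passed a filter on low values. The cells were MDA-MB-453, an established luminal breast cancer line of apocrine type that carries no modification named in the labels. They received the degrader for 3 h, and 4-thiouridine at 0.1 mM was in the medium for the last 60 min, also in the 6 libraries of cells given DMSO that serve here as a reference. The sample titles call the drug dBET and the treatment label calls it JQ1-VHL. No library of cells without 4-thiouridine was analysed here, so the background of T-to-C reads was not measured.

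As background, JQ1-VHL joins a ligand of the BET bromodomains to a ligand of the VHL ubiquitin ligase, so that the BET proteins are ubiquitinated and degraded. BET proteins help RNA polymerase II to leave its pause near the promoter, and their loss lowers transcription of many genes at once. A new messenger RNA leaves the nucleus after capping, splicing and 3-prime-end formation, when export factors such as NXF1 carry it through the nuclear pore, while incompletely spliced RNA and some noncoding RNAs are held back, many of them at nuclear speckles. An RNA that carries 4-thiouridine was made within the labelling hour. Its place at harvest would show whether it left the nucleus in that time only if the fractions were pure.

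The labels state how the fractions were made, and this limits what nuclear means here. Cells were opened with digitonin, which permeabilises the cholesterol-rich plasma membrane, and the pellet of a low-speed spin was taken as the nuclear fraction. Digitonin leaves most of the membrane of the endoplasmic reticulum in place, and the labels name no step that removes it from the nuclei. RNA inside the nucleus and RNA on membranes that pellet with it therefore cannot be told apart. ERCC RNA was added by mass of RNA, so values on that scale compare equal masses of RNA and not equal numbers of cells, and fewer cells cannot be told apart from less RNA per cell.

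The nuclear libraries held 2.88, 3.15 and 1.58 M T-to-C reads and the cytoplasmic libraries 4.99, 5.63 and 5.43 M, where M stands for 1e06, within a range of 1.58 to 6.77 M over all 18 libraries. Nuclear replicate 3 was the shallowest, with 30.5% of intervals at 0 against 10.2% and 8.76% in the other two, and its Spearman correlations with them over genes were 0.896 and 0.897 against 0.975 between replicates 1 and 2. All 10 markers of luminal and apocrine identity listed for the check passed the filter. Of 24 markers of other cell types 3 were in the table (ALB, COL1A1 and TP63), and they made up at most 0.0150% of the sum of a nuclear library and 0.00878% of a cytoplasmic one. They were not absent, since 2 of them passed the filter. COL1A1 lay in the highest quintile of tested genes by level in total new RNA, as defined below. Values are T-to-C reads summed over the numbered intervals of a gene, and a read may have been counted in more than 1 interval.

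Per mass of RNA the nuclear fraction held less new polyadenylated RNA than the cytoplasmic fraction. The summed ERCC-scaled values were 1.53, 2.04 and 0.753 M units in the nuclear libraries and 10.5, 12.1 and 7.59 M units in the cytoplasmic ones. Every nuclear library lay below every cytoplasmic one. The means were 1.44 ± 0.647 and 10.0 ± 2.29 M units (SD, n = 3), a ratio of 0.143, and the ratios within batches 1, 2 and 3 were 0.146, 0.168 and 0.0992. A two-sided exact permutation test of the sums gave p = 0.1, the smallest that 3 against 3 libraries allow. Without the genes of the ribosomal protein and translation factor lists the ratio was 0.165.

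Genes were compared on 2 scales. On the ERCC scale, limma called 307 of the 10191 tested genes (3.01%) higher in the nuclear fraction and 2938 (28.8%) lower at an adjusted p under 0.05, and the median log2 difference was −0.82. To ask which transcripts leaned to the nucleus against the bulk of the others, the 6 libraries were also divided by median-of-ratios factors, which set the typical gene near equality. On this rescaled basis 2863 genes (28.1%) were called nuclear and 2399 (23.5%) cytoplasmic, with a median of 0.54 and a range from −5.85 to 5.78. The factors rest on the better covered genes, and over the 8138 genes with reads in all 6 libraries the median was 0.12. In the following, "nuclear" and "cytoplasmic" calls are calls of this rescaled test, a log2 difference is nuclear minus cytoplasmic, and list medians are given rescaled, then on the ERCC scale, then with all libraries brought to 1 sum, where the medians of all tested genes were 0.54, −0.82 and 1.76.

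The 2 scales answer different questions for the nuclear side. Of the 2863 nuclear genes 301 were also called higher on the ERCC scale, and 368 had an ERCC-scaled difference below 0. All 2399 cytoplasmic genes were also called lower on the ERCC scale. With the libraries brought to 1 sum, 5656 genes were called nuclear and 963 cytoplasmic, so the balance of the 2 directions rests on the scaling. The values of the 2 fractions did not overlap for 3482 genes with higher nuclear values (34.2%) and 2741 with higher cytoplasmic values (26.9%).

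**Figure D1:**
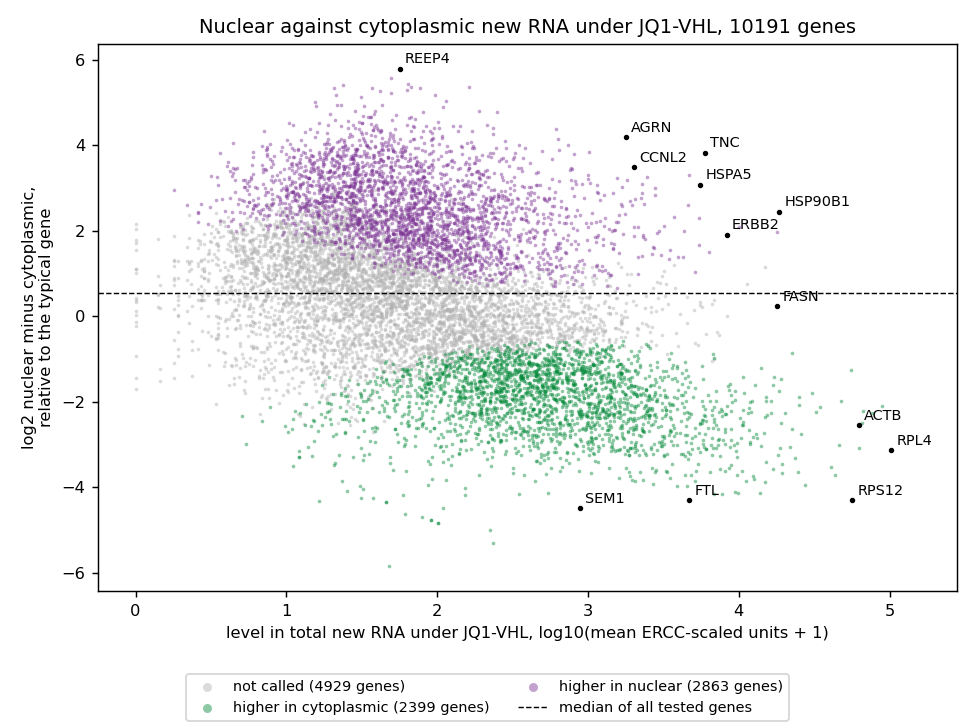
Each point is 1 of the 10191 tested genes, with its level in total new RNA under JQ1-VHL on the x axis (log10 of mean ERCC-scaled units + 1) and its rescaled log2 difference between nuclear and cytoplasmic libraries on the y axis. Genes called cytoplasmic (green, 2399) gather at high levels and genes called nuclear (purple, 2863) at middle and low levels, and AGRN, TNC, HSPA5 and HSP90B1 lie apart as high-level nuclear genes.

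The direction went with the level of the gene. The genes were divided into 5 equal groups (quintiles) by level. In the highest quintile of genes by level in total new RNA, 65.6% were called cytoplasmic and 12.8% nuclear, whereas in the middle quintile the shares were 12.2% and 40.1%. In the lowest quintile only 1.72% were called cytoplasmic and 22.4% nuclear. The Spearman correlation of the difference with the level was −0.457 across genes, which share libraries and depth. The 10 genes with the largest shares held 7.09%, 6.76% and 7.97% of the sums of the nuclear libraries and 13.4%, 13.4% and 15.7% of the cytoplasmic ones, so new RNA was spread over more genes in the nucleus. For the lists with most members in that quintile, the counts there are given as well.

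Among genes with a mean of at least 300 reads over the 6 libraries, a limit chosen after the values were seen, the 12 highest differences belonged to SMPD4BP, AGRN, THBS1, NUP210, MIRLET7BHG, H3C12, MMP17, IGF2R, TNC, AKAP8L, GAA and PABPC1L, from 4.38 down to 3.71. Several encode secreted or membrane proteins. AGRN, the basement membrane proteoglycan agrin (chromosome 1, 1020123 to 1056118 in the GRCh38 coordinates of GENCODE 29), had rescaled values of 1939, 1751 and 2453 in the nuclear libraries and 143, 88.3 and 107 in the cytoplasmic ones. The lowest nuclear value was far above the highest cytoplasmic one. The difference was 4.18 ± 0.26 (SE) log2 units (limma, adjusted p = 2.5e-05), and on the ERCC scale it was 2.64 (adjusted p = 0.0067). TNC, which encodes the matrix glycoprotein tenascin C, had 5898, 5254 and 9440 nuclear and 593, 464 and 371 cytoplasmic rescaled units. This is a difference of 3.83 ± 0.29 (adjusted p = 3.6e-05) in a gene that overlaps DELEC1. THBS1, which encodes the secreted protein thrombospondin 1 and overlaps FSIP1, had 749, 601 and 969 nuclear against 63.5, 45.6 and 24.9 cytoplasmic units. NUP210, a membrane-spanning protein of the nuclear pore, differed by 4.00 ± 0.30 without overlap.

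A pair of these genes encodes proteins of the lysosomal route. IGF2R, the receptor that sorts hydrolases to lysosomes, had 1014, 834 and 1834 nuclear and 106, 80.7 and 59.7 cytoplasmic units. GAA, the lysosomal acid alpha-glucosidase, had 761, 603 and 1498 nuclear and 108, 77.9 and 29.8 cytoplasmic units. Both separated fully between the fractions, with differences of 3.84 and 3.78. The laminin chain LAMB2 had 181, 188 and 195 nuclear but only 15.9, 4.75 and 0 cytoplasmic units, and its difference of 5.36 ± 0.89 (adjusted p = 0.0012) carried a wide error because of the few cytoplasmic reads.

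Several of the highest differences rest on almost no cytoplasmic reads. REEP4, which encodes a protein that shapes the endoplasmic reticulum, had 385 nuclear reads and 2 cytoplasmic reads over 3 libraries each, a rescaled ratio of 153 with a 95% exact interval from 42.0 to 1265 that covers counting error only. LEMD2, an inner nuclear membrane protein, had 341 reads against 2, a ratio of 135 (37.2 to 1121). In all, 98 genes called nuclear had no cytoplasmic read, and for these the fitted difference depends on the pseudocount and no size is given. The transcribed pseudogene SMPD4BP and the microRNA host MIRLET7BHG were the noncoding genes among those 12, with 914, 801 and 1104 against 48.7, 47.5 and 36.1 units and with 633, 618 and 195 against 39.1, 34.2 and 12.4 units. With at least 30 mean reads other noncoding genes were higher, among them the pseudogenes WASH7P (4.55) and SDHAP1 (4.44). SMPD4BP may share reads with SMPD4, from which it derives.

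**Figure D2:**
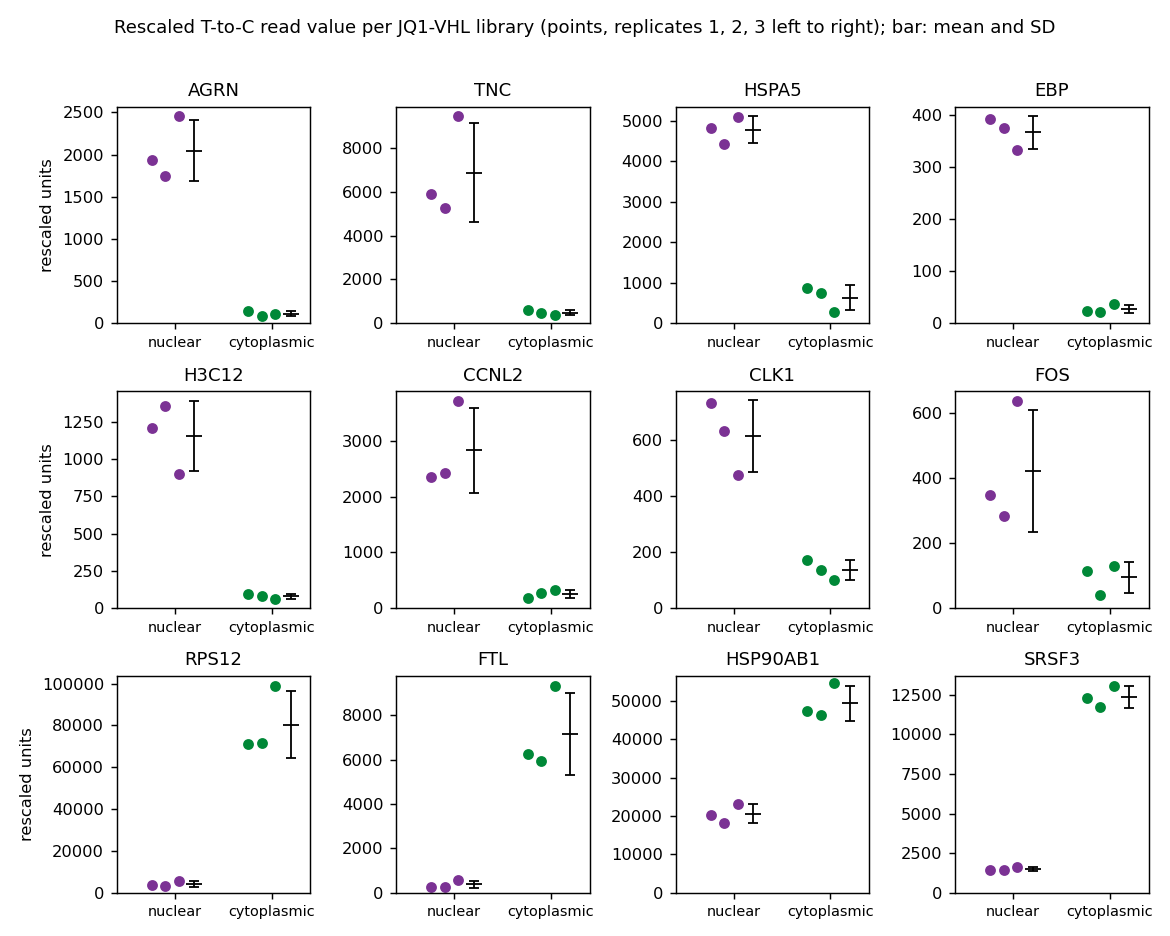
Rescaled T-to-C read values (y axis, linear) of 12 genes in the 3 nuclear (purple) and 3 cytoplasmic (green) JQ1-VHL libraries, replicates 1 to 3 from left to right, with the mean and SD beside them. The fractions do not overlap in any panel, and the nuclear libraries lie higher in the panels from AGRN to FOS and lower for RPS12, FTL, HSP90AB1 and SRSF3.

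The cytoplasmic end held messages of housekeeping proteins. RPS12, a protein of the small ribosomal subunit, had 3705, 3070 and 5816 nuclear and 71142, 71465 and 98742 cytoplasmic rescaled units. Each cytoplasmic library exceeded each nuclear one by more than any spread between replicates, with a difference of −4.30 ± 0.29 (adjusted p = 2.5e-05). SEM1, a small subunit of the proteasome lid, had 81.5, 42.2 and 102 against 1447, 1415 and 2009 units, and FTL, the ferritin light chain, which was taken by the limit of 300 reads, 282, 278 and 580 against 6265, 5918 and 9302 units. TPT1, the translationally controlled tumour protein, and UQCRH, a subunit of respiratory complex III, differed by −4.10 and −3.72.

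Part of the cytoplasmic extreme is not made of separate genes. A set of 11 gene IDs, of which 2 are in GENCODE 29, held exactly 2, 1 and 0 nuclear and 15, 7 and 22 cytoplasmic reads in every one of their intervals. All 11 were called cytoplasmic and 7 of them stood among the 12 lowest differences, and they are counted as single lines of the table without being named as results. CD163L1, which overlaps CD163, had 3 nuclear and 228 cytoplasmic reads, a rescaled ratio of 95.8 in favour of the cytoplasm (95% exact interval 32.4 to 468, counting error only).

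Ribosomal protein genes, which encode the protein part of the cytosolic ribosome, were the list furthest to the cytoplasmic side. Of 64 tested members 40 were called cytoplasmic and 8 nuclear, and the medians were −2.33, −3.83 and −1.01. RPL4 of the large subunit had 13696, 12259 and 21300 nuclear and 114082, 112218 and 186227 cytoplasmic units, and it held 2.34% ± 0.363 (SD, n = 3) of the cytoplasmic sum. In the highest quintile by level 34 of 38 members (89.5%) were cytoplasmic, above the 65.6% of all genes there. The 26 members below that quintile had a median of −0.04, with 6 cytoplasmic and 7 nuclear. RPL41 was an exception with 283, 214 and 168 nuclear against 47.6, 44.6 and 7.46 cytoplasmic units. Ribosomal protein genes have many processed pseudogenes, so the assignment of their reads is uncertain.

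Other housekeeping lists lay on the same side. Of 29 translation factors 17 were cytoplasmic and 3 nuclear, with medians of −1.04, −2.59 and 0.30, so that the sign of the median turned with equal library sums, and without nuclear replicate 3 the nuclear count was 6. Of the 19 members in the highest quintile 16 were cytoplasmic (84.2%). Of 16 glycolytic enzymes 12 were cytoplasmic and 2 nuclear (medians −1.63, −3.18 and −0.29). Among them GAPDH had 4012, 3779 and 6517 nuclear and 26199, 25516 and 44438 cytoplasmic units, and ENO1 18308, 16435 and 30249 against 84833, 84799 and 97890 units. Of 40 nuclear genes for oxidative phosphorylation 17 were cytoplasmic and 5 nuclear (medians −0.37, −1.68 and 0.86, the last with the opposite sign). The nuclear count of that list was 2 without nuclear replicate 1 or 2, 3 without cytoplasmic replicate 3 and 9 without nuclear replicate 3.

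Heat shock and cytoskeletal genes also leaned to the cytoplasm. None of 20 tested genes of the heat shock and chaperone list was called nuclear and 14 were called cytoplasmic (medians −1.88, −3.44 and −0.54), although 1 was nuclear without nuclear replicate 3. That list leaves out the endoplasmic reticulum chaperones HSPA5 (3.07), HSP90B1 (2.44) and CANX (2.08), which were nuclear and are described below. HSP90AB1, the constitutive cytosolic HSP90, had 20290, 18292 and 23236 nuclear and 47205, 46185 and 54553 cytoplasmic units, a difference of −1.26 ± 0.21 (adjusted p = 0.0013) that was 0.08 with equal library sums. Of 25 genes of the actin and intermediate filament cytoskeleton 15 were cytoplasmic and 1 nuclear (medians −1.88, −3.38 and −0.54), and 2 were nuclear without nuclear replicate 3. ACTB had 13616, 11188 and 16183 against 78226, 77224 and 82202 units. VCL, the focal adhesion protein vinculin, was the nuclear member with 687, 639 and 860 against 133, 116 and 121 units. In the highest quintile by level all 14 genes of the chaperone list and 11 of 12 glycolytic genes were cytoplasmic. For the cytoskeletal list 12 of 17 were cytoplasmic there (70.6%), near the 65.6% of all genes of that level. RPL4, ENO1 and HSP90AB1 were chosen as abundant examples after their values were seen.

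**Figure D3:**
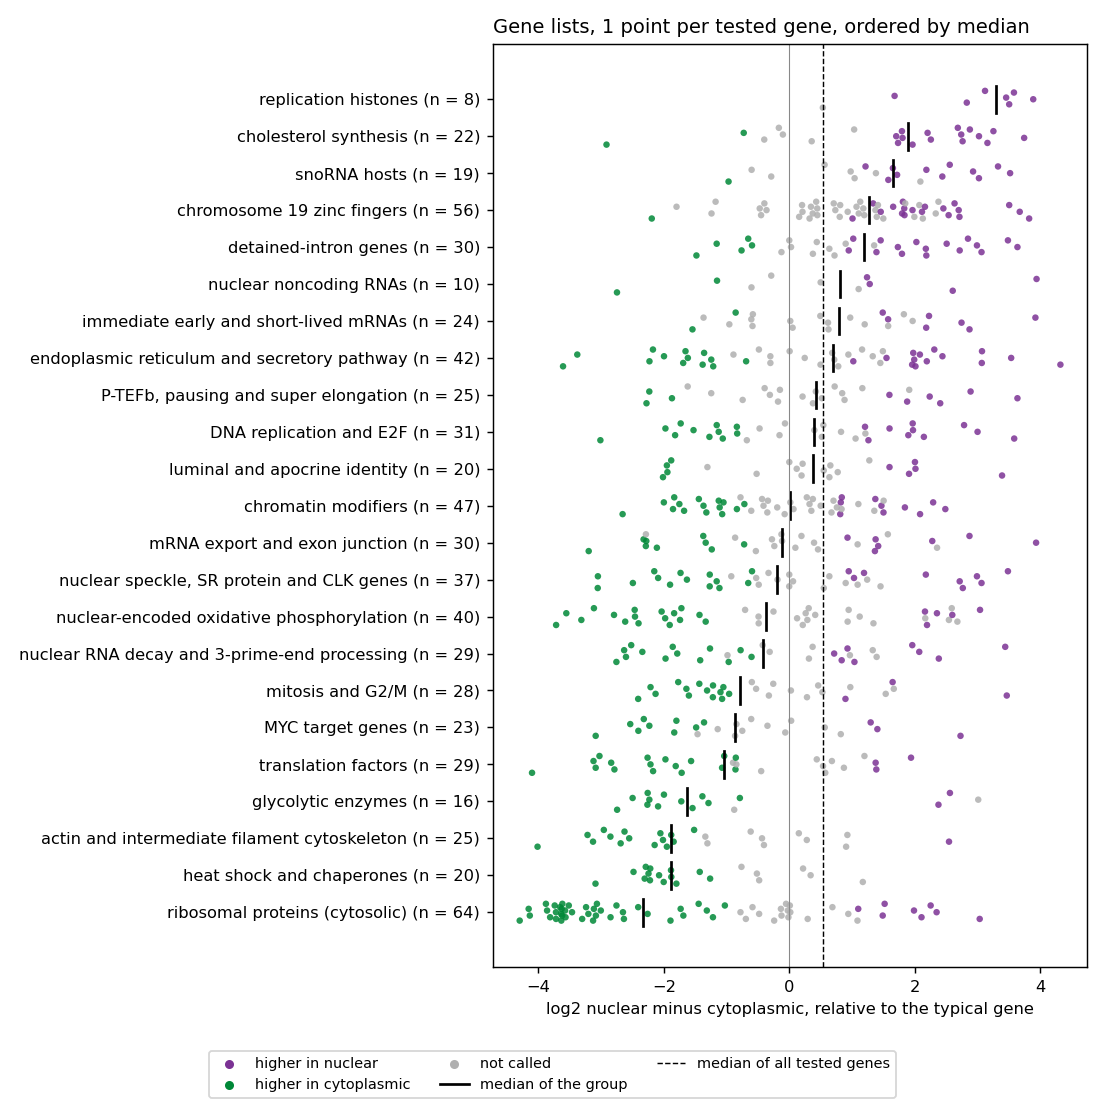
Rescaled log2 difference between nuclear and cytoplasmic libraries (x axis) for each tested gene of 23 lists, coloured by its call, with the list median as a black bar and the median of all tested genes, 0.54, as a dashed line. Replication histones, cholesterol synthesis and snoRNA hosts stand at the nuclear end (medians 3.29, 1.88 and 1.65), and ribosomal proteins at the cytoplasmic end (−2.33). With equal library sums the medians of translation factors, oxidative phosphorylation, speckle, export, RNA decay, MYC target and G2/M genes are above 0.

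The secretory list split by the place where its products work. Of 42 genes of the endoplasmic reticulum and secretory pathway 14 were nuclear and 13 cytoplasmic (medians 0.70, −0.84 and 1.98). These are 33.3% and 31%, against 28.1% and 23.5% of all tested genes. Divided after these values had been seen, the 24 genes for proteins inside or spanning the membrane of the endoplasmic reticulum comprised 12 nuclear and 2 cytoplasmic calls (medians 1.52, 0.30 and 2.82). The 17 genes for cytosolic coat proteins, ARF proteins and the signal recognition particle comprised 1 nuclear and 11 cytoplasmic calls (medians −1.36, −2.91 and −0.02). Since the division followed the values, the counts describe it and do not test it. XBP1, a nuclear gene of the list, was left out of the division as a transcription factor. Leaving out 1 library at a time gave 10 to 12 nuclear and 1 to 2 cytoplasmic calls for the former, and 0 to 3 nuclear and 10 to 11 cytoplasmic calls for the latter. The 2 became 1 without any library but nuclear replicate 3, and the 1 became 3 without nuclear replicate 3 and 0 without nuclear replicate 1 or 2 or cytoplasmic replicate 1. In the highest quintile by level the former comprised 8 nuclear and 1 cytoplasmic calls among 11, the latter 0 and 11 among 13, and the whole list 9 and 12 among 25.

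HSPA5, the lumenal HSP70 chaperone BiP (chromosome 9, 125234853 to 125241330), had 4817, 4430 and 5100 nuclear and 864, 743 and 285 cytoplasmic rescaled units. The fractions were far apart, with a difference of 3.07 ± 0.39 (adjusted p = 2.8e-04) that did not pass the test on the ERCC scale (1.52, adjusted p = 0.13). HSP90B1, the lumenal HSP90 chaperone GRP94, had 11614, 12105 and 20760 against 3566, 3205 and 1597 units, in a gene that overlaps UQCC6. It held 0.630% ± 0.0791 of the nuclear sum and 0.0504% ± 0.0235 of the cytoplasmic sum (SD, n = 3), and was the single nuclear call among the 10 genes with the largest nuclear shares. P4HB, a protein disulphide isomerase, had 670, 780 and 420 against 82.5, 63.6 and 68.4 units. CANX, the membrane chaperone calnexin, had 6765, 6048 and 11997 against 2189, 1797 and 1646 units, and SEC61A1, the channel subunit of the translocon, 2566, 2490 and 4188 against 783, 756 and 369 units. HSPA5, HSP90B1, P4HB, CANX and SEC61A1 were chosen as examples after their values were seen.

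SRP14, an Alu-domain protein of the cytosolic signal recognition particle, had 884, 849 and 973 nuclear and 10306, 10086 and 12705 cytoplasmic units, a difference of −3.61 ± 0.21 (adjusted p = 2.5e-05). SEC23B, a COPII coat protein that was also chosen after its values were seen, had 631, 671 and 796 against 2008, 2382 and 2374 units, a call that was lost with equal library sums. The 2 cytoplasmic genes for membrane proteins were SEC61B and SSR3, a subunit of the translocon-associated complex. SEC61B, a tail-anchored subunit of the translocon that is inserted after translation, had 57.9, 44.1 and 73.0 against 554, 546 and 727 units. COPB2, a COPI coat protein, was the nuclear exception among the cytosolic members (1.02, and −0.52 on the ERCC scale). SSR3 and COPB2 are named as the exceptions to these counts, after their values were seen.

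Families of membrane and secreted proteins chosen by symbol after the values were seen leaned the same way as the lumenal and membrane genes. Over 310 tested members of 10 such families 173 (55.8%) were nuclear and 9 (2.90%) cytoplasmic, with medians of 1.93, 0.55 and 3.12, against 2517 nuclear and 2336 cytoplasmic among all 9328 protein-coding genes, with a rescaled median of 0.44. Leaving out 1 library at a time gave 131 to 165 nuclear and 6 to 16 cytoplasmic calls, the 16 without nuclear replicate 3. In the highest quintile by level 33 of 52 members were nuclear (63.5%) and 4 cytoplasmic (7.69%), against 12.8% and 65.6% of all genes there. Solute carriers other than SLC25, which sit in plasma and organelle membranes, comprised 67 nuclear and 2 cytoplasmic calls among 119 (median 1.89), with 4 cytoplasmic calls without nuclear replicate 3 and 1 without nuclear replicate 1 or cytoplasmic replicate 2. SLC25 carriers of the mitochondrial inner membrane comprised 9 nuclear and 15 cytoplasmic calls among 36 (median −0.47, and 0.60 with equal library sums).

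Within the families a few members show the values. SLC2A1, the glucose transporter GLUT1, had 291, 258 and 314 nuclear and 44.4, 61.7 and 39.8 cytoplasmic units, a difference of 2.56 ± 0.29. SLC3A2 and SLC38A2, a heavy chain of amino acid exchangers and an amino acid transporter, differed by 2.76 and 2.58. SLC40A1, the iron exporter ferroportin, was one of the 2 cytoplasmic carriers (−1.75), a call lost with equal library sums. SLC7A5, the partner of SLC3A2, had 876, 730 and 6411 nuclear against 565, 636 and 848 cytoplasmic units and was not called (1.25, adjusted p = 0.16), since nuclear replicate 3 lay far from the other two. These carriers other than SLC2A1 were chosen after their values were seen.

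The remaining membrane families were small. ABC transporters of the ABCA, ABCC and ABCG groups comprised 11 nuclear and 0 cytoplasmic calls among 13, and integrins 8 and 1 among 12. The pump subunits of the ATP1 and ATP2 families comprised 8 nuclear calls among 10, receptor tyrosine phosphatases 7 among 8, and plexins with semaphorins 8 among 13, with no cytoplasmic call in any of these 3 groups, although 1 plexin or semaphorin gene was cytoplasmic without nuclear replicate 3. The 16 receptors of the LRP, NOTCH, FZD and EPH families comprised 12 nuclear calls, which were 7 without nuclear replicate 1 or 2. In contrast, proteasome subunits comprised 19 cytoplasmic and 5 nuclear calls among 37, and mitochondrial ribosomal proteins 28 and 5 among 60. The nuclear count of the proteasome was 9 without nuclear replicate 3, and that of the mitochondrial ribosome 3 and 2 without nuclear replicate 1 and 2. In the highest quintile by level all 14 mitochondrial ribosomal genes and 16 of 17 proteasome genes were cytoplasmic.

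**Figure D4:**
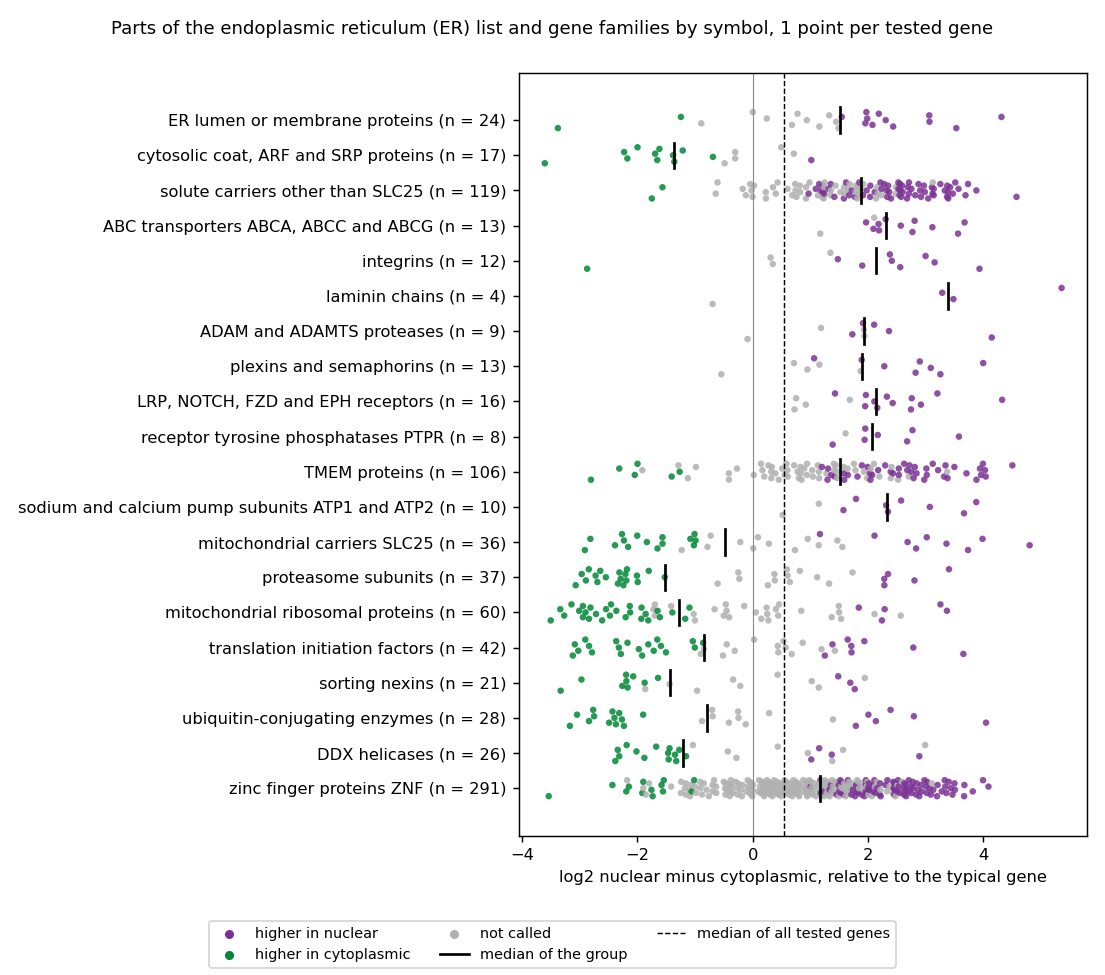
Rescaled log2 difference between nuclear and cytoplasmic libraries (x axis) for each tested gene of the divided secretory list and of 18 families taken by symbol, coloured by call, with the group median as a black bar. The families of membrane and secreted proteins lie to the right of the median of all tested genes (dashed, 0.54), and proteasome, mitochondrial ribosome and sorting nexin genes to its left. With equal library sums the medians of SLC25 carriers (0.60), ubiquitin-conjugating enzymes (0.51), translation initiation factors (0.49) and DDX helicases (0.13) are above 0, and on the ERCC scale the ZNF median is below 0 (−0.20).

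Genes of cholesterol synthesis and its control were mostly nuclear. Of 22 tested members 15 were nuclear and 2 cytoplasmic, with medians of 1.88, 0.34 and 3.22, and leaving out 1 library at a time gave 14 to 15 nuclear and 1 to 2 cytoplasmic calls, the 1 without nuclear replicate 1 or 2. Of the 13 members in the highest quintile by level 8 were nuclear and 2 cytoplasmic. EBP, a sterol isomerase of the endoplasmic reticulum membrane (chromosome X, 48521158 to 48528716), had 392, 374 and 332 nuclear and 23.3, 21.8 and 36.1 cytoplasmic units. Its difference of 3.74 ± 0.31 (adjusted p = 4.3e-05) was the largest of the list among members past the read minimum, and its ERCC-scaled difference was 2.21 (adjusted p = 0.042). SREBF1 and SREBF2, the membrane-bound transcription factors of the pathway, differed by 3.16 and 2.88.

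Soluble enzymes of the pathway stood on both sides. PMVK, phosphomevalonate kinase, had 172, 170 and 195 nuclear and 1350, 1225 and 1495 cytoplasmic units (−2.91 ± 0.21). HMGCS1, the cytosolic synthase at the start of the pathway, had 784, 759 and 825 against 1302, 1263 and 1354 units, a small difference of −0.73 ± 0.20 (adjusted p = 0.014). That call was lost without nuclear replicate 1 or 2, and its sign turned with equal library sums (0.62). MVD, IDI1 and MVK, soluble enzymes of the mevalonate route, were nuclear with differences of 2.76, 2.26 and 1.79. SREBF1, SREBF2, MVD, IDI1 and MVK were chosen after their values were seen.

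Genes of the speckle and splicing list, which includes the SR proteins and the CLK kinases that phosphorylate them, fell on both sides. Of 37 tested members 9 were nuclear and 14 cytoplasmic (medians −0.19, −1.74 and 1.15, the last with the opposite sign). Of the 24 members in the highest quintile by level 6 were nuclear and 12 cytoplasmic, a larger nuclear and a smaller cytoplasmic share than the 12.8% and 65.6% of all genes there. Genes known for detained introns, which keep incompletely spliced transcripts in the nucleus, comprised 16 nuclear and 5 cytoplasmic calls among 30 (medians 1.19, −0.35 and 2.49). These are 53.3% and 16.7%, against 28.1% and 23.5% of all tested genes. In the highest quintile by level 6 of its 16 members were nuclear (37.5%) and 5 cytoplasmic (31.25%). The cytoplasmic count of that list was 1 without cytoplasmic replicate 1 or 2 and 2 without nuclear replicate 1 or 2. The scaffold gene SON (−0.53 on the rescaled basis) changed sign with equal library sums (0.81).

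CCNL2, a cyclin of speckles that has detained introns (chromosome 1, 1385711 to 1399328), had 2362, 2417 and 3715 nuclear and 177, 269 and 316 cytoplasmic units. The fractions were separated by a difference of 3.48 ± 0.29 (adjusted p = 4.3e-05), and the ERCC-scaled difference was 1.93 (adjusted p = 0.052). CLK1, the kinase that is a standard example of a detained transcript (chromosome 2, 200853009 to 200864744), had 730, 633 and 476 against 172, 137 and 99.5 units, a difference of 2.18 ± 0.29 (adjusted p = 3.7e-04). CLK4 differed by 2.71 ± 0.77 (adjusted p = 0.016), and the call was lost without nuclear replicate 1 (adjusted p = 0.072) or 2 (adjusted p = 0.075). LUC7L, a U1-associated splicing factor, had 516, 555 and 861 against 66.6, 83.6 and 73.4 units. On the opposite side SRSF3, an SR protein, had 1421, 1436 and 1619 against 12299, 11740 and 13093 units (−3.05 ± 0.20), and GABPB1, a detained-intron gene, 231, 306 and 195 against 630, 688 and 695 units. GABPB1 was above 0 (0.36) when the highest interval of each gene replaced the sum.

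The distribution of reads along a gene differed more between fractions in CLK1 than in the 5 other genes examined. The largest difference in an interval's share was 15.96 percentage points in CLK1, against 3.61 in AGRN, 3.52 in CCNL2, 3.49 in NUP210, 2.52 in ACTB and 2.46 in RPS12. Interval 7 of CLK1 held 20.9% of its 2286 nuclear reads but 4.91% of its 387 cytoplasmic reads, with 218, 215 and 44 reads in the nuclear and 11, 4 and 4 in the cytoplasmic libraries. Intervals 2 and 3 of CLK1 held 34.4% and 29.7% of the cytoplasmic and 19.7% and 14.9% of the nuclear reads. In CCNL2 the largest shares were in intervals 1 and 2 in both fractions, and in AGRN intervals 9, 14 and 20 led in both. RPS12 had nearly the same shares in both fractions, such as 18.3% and 18.2% in interval 5. Whether an interval stands for an intron or for reads spliced across it is not stated in the sources used here.

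**Figure D5:**
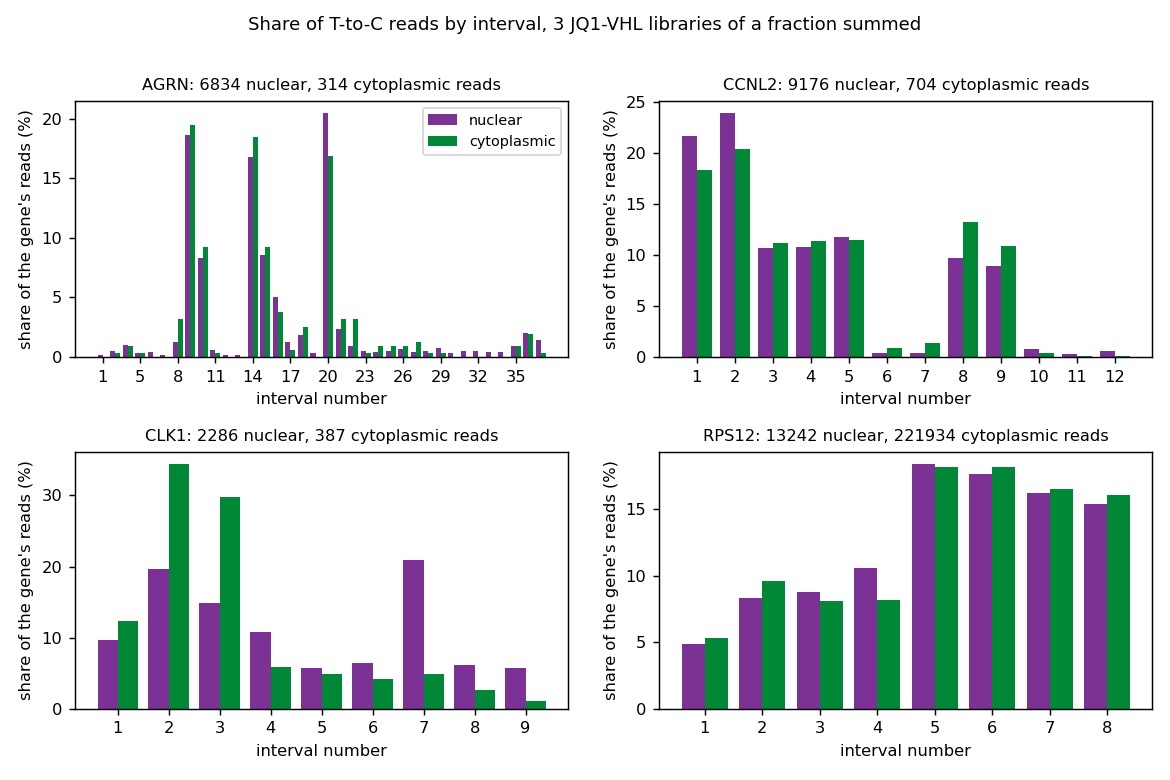
Share of a gene's T-to-C reads (y axis, percent) in each numbered interval (x axis) of AGRN, CCNL2, CLK1 and RPS12, with the 3 libraries of a fraction summed, nuclear in purple and cytoplasmic in green. CLK1 shows a nuclear share of 20.9% against 4.91% in interval 7, while AGRN and RPS12 have similar profiles in both fractions.

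Across genes, nuclear reads went more with the gap length assigned to an interval than cytoplasmic reads did. Each numbered interval was taken as a gap between annotated exons, which the sources used here do not state. The match is not exact, as ZNF682 has 11 intervals but 10 annotated exon blocks, and TFRC 22 but 21. Whether the correlations reflect the length of introns was therefore not tested. Over 1658 genes with at least 5 intervals and 100 reads in each fraction, the median Spearman correlation within a gene between reads and gap length was 0.29 in the nucleus and 0.03 in the cytoplasm. Among the 267 of these genes called nuclear the medians were 0.38 and 0.14. The 19 nuclear members of the membrane and secreted families had medians of 0.21 and −0.02, and the 248 other nuclear genes 0.40 and 0.16. LUC7L had 0.87 and 0.50, whereas AGRN had −0.14 and −0.12 and TNC −0.08 and −0.13. These correlations are a description, as intervals of a gene share its reads, and a difference between the groups of genes was not tested.

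The lists of RNA handling held both directions. Their nuclear shares, 23.3% for export and 27.6% for decay genes, were near the 28.1% of all tested genes. Their cytoplasmic shares were 30% and 44.8%, against 23.5%. Of 30 genes of mRNA export and the exon junction complex 7 were nuclear and 9 cytoplasmic (medians −0.12, −1.56 and 1.17), and of 29 genes of nuclear RNA decay and 3-prime-end processing 8 were nuclear and 13 cytoplasmic (medians −0.42, −1.96 and 0.91). The third median has the opposite sign in both lists, and the nuclear count of the decay list was 4 without nuclear or cytoplasmic replicate 1 or 2. MAGOH, a core protein of the exon junction complex, had 317, 363 and 370 nuclear and 3190, 3209 and 3230 cytoplasmic units, with hardly any spread within a fraction (−3.20 ± 0.20). THOC6, a subunit of the THO export complex in a gene that overlaps HCFC1R1 and BICDL2, had 119, 101 and 47.4 against 3.17, 5.70 and 4.97 units (3.93 ± 0.55). RAE1, an export factor at the pore, differed by 2.87. NXF1 and ALYREF, which carry mRNA to and through the pore, were each below 0 on the rescaled basis and above 0 with equal library sums (1.22 and 0.0022).

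Replication histone genes, whose messages are mostly not polyadenylated, were the list furthest to the nuclear side. Of 37 listed genes only 8 were in the table, and all 8 were tested. Of these 7 were nuclear and none was cytoplasmic, with medians of 3.29, 1.74 and 4.58. When 1 library was left out there were 6 to 7 nuclear calls. H3C12 (chromosome 6, 27890382 to 27893106), in a gene that overlaps H2AC17, had 1209, 1357 and 898 nuclear and 94.1, 79.8 and 58.4 cytoplasmic units, a difference of 3.89 ± 0.28 (adjusted p = 2.9e-05). H2BC5 had 1881, 2140 and 1060 against 253, 249 and 102 units, and H2AC6 and H4C8 differed by 3.46 and 2.83. H2BC12 was the member that did not pass the test, with 418, 492 and 376 against 290, 363 and 241 units (0.53 ± 0.25, adjusted p = 0.099). Poly-A selection keeps only a part of histone messages, and the near-identical copies can share reads, so these values describe the polyadenylated reads that the table assigns to each gene. H3C12 and H2BC15 are annotated with 2 and 4 exon blocks. The 8 tested genes therefore do not stand for replication histones in general. H2BC5, H2AC6 and H4C8 were chosen after their values were seen.

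Noncoding transcripts leaned to the nucleus. Of 562 genes annotated as long noncoding RNA types 41.5% were nuclear and 4.63% cytoplasmic (median 1.69), and of 182 pseudogenes 45.6% and 6.04% (median 1.75). Over all tested genes the shares were 28.1% and 23.5%. In the quintile next to the lowest by level, however, 36.9% of all genes were nuclear and 4.47% cytoplasmic (median 1.38). The noncoding shares lie near these, and the part of level in them was not tested. Hosts of small nucleolar RNAs, whose introns are cut out and trimmed, comprised 11 nuclear and 1 cytoplasmic calls among 19 (medians 1.65, 0.22 and 2.99), with 2 cytoplasmic calls without nuclear replicate 3. SNHG1 had 305, 371 and 219 nuclear and 47.6, 38.0 and 23.6 cytoplasmic units, SNHG12 differed by 3.52, and the cytoplasmic member was SNHG14 (−0.97, and 0.37 with equal library sums). A further list, drawn up for nuclear noncoding RNAs, had 20 members. Of the 10 in the table, all tested, 4 were nuclear and 2 cytoplasmic. Where each of these RNAs is known to reside was not checked here. FIRRE, a chromatin-bound noncoding RNA, had 139, 142 and 217 against 40.2, 34.2 and 12.4 units, while DANCR had 255, 281 and 188 against 1503, 1592 and 1715 units (−2.75). The nuclear count of 4 was 2 without nuclear replicate 1 or 2 or cytoplasmic replicate 3.

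Zinc finger genes of chromosome 19, most of which encode KRAB repressors, comprised 19 nuclear and 1 cytoplasmic calls among 56 (medians 1.26, −0.17 and 2.42). The nuclear count was 12 without nuclear replicate 1 and 11 without nuclear replicate 2, the cytoplasmic count was 3 without nuclear replicate 3, and the sign of the median differed on the ERCC scale. The shares were 33.9% nuclear and 1.79% cytoplasmic, against 28.1% and 23.5% of all tested genes. Below the highest quintile by level 18 of 55 members were nuclear and 1 cytoplasmic, against 2603 and 1063 of all 8153 genes there. Nuclear calls were thus about as common as among all genes of those levels. ZNF682 differed by 3.82 (adjusted p = 0.013), a call lost without nuclear replicate 3 (adjusted p = 0.060) and with a pseudocount of 0.1 (adjusted p = 0.051). ZNF320 differed by 2.45, and ZNF226 was the cytoplasmic member (−2.19). Chromatin modifiers comprised 10 nuclear and 15 cytoplasmic calls among 47 (medians 0.02, −1.53 and 1.35). Their nuclear count was 4 without nuclear replicate 1, nuclear replicate 2 or cytoplasmic replicate 3, and 5 without cytoplasmic replicate 2. The histone methyltransferase gene ASH1L differed by 2.29 and the deacetylase gene HDAC2 by −2.66.

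Of the genes for BET proteins themselves, BRD3, which overlaps BRD3OS, had 98.7, 118 and 27.4 nuclear and 5.29, 5.70 and 18.7 cytoplasmic units and was nuclear (2.89 ± 0.70, adjusted p = 0.0084). BRD2 was not called (0.84, and −0.71 on the ERCC scale, adjusted p = 0.15 on the rescaled basis). These reads measure new transcripts and do not check the loss of the proteins. Of 25 genes of P-TEFb, pausing and the super elongation complex 6 were nuclear and 3 cytoplasmic (medians 0.42, −1.02 and 1.72). These are 24% and 12%, against 28.1% and 23.5% of all tested genes. CDK9, the kinase of P-TEFb, had 80.8, 86.3 and 36.5 against 19, 18 and 3.73 units (2.40 ± 0.67, adjusted p = 0.015), a call lost without nuclear replicate 1 or 2. The cytoplasmic calls were ELL2, LARP7 and NELFB (−2.28, −2.23 and −1.87), an elongation factor, a 7SK-binding protein and a subunit of the pausing factor NELF. CDK9 and NELFB were chosen after their values were seen.

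Immediate early genes and other genes with short-lived mRNAs comprised 7 nuclear and 2 cytoplasmic calls among 24 (medians 0.80, −0.34 and 1.84), with 1 cytoplasmic call without nuclear or cytoplasmic replicate 1 or 2. The nuclear share of 29.2% was near the 28.1% of all tested genes, and the cytoplasmic share was 8.33% against 23.5%. CCN1, a secreted matricellular protein, had 373, 334 and 542 nuclear and 34.9, 33.2 and 14.9 cytoplasmic units (3.92 ± 0.39, adjusted p = 8.3e-05). FOS, a subunit of the AP-1 transcription factor, had 347, 284 and 637 against 113, 40.8 and 128 units (2.23 ± 0.47, adjusted p = 0.0044). KLF2, a zinc finger transcription factor, lay on the other side with 436, 400 and 429 against 1281, 1304 and 1113 units (−1.54 ± 0.21), a call lost with equal library sums. MYC had only 6.43, 7.56 and 9.12 against 9.52, 3.80 and 2.49 units, and its fractions overlapped (0.62, adjusted p = 0.49). Of 23 MYC target genes 9 were cytoplasmic and 3 nuclear (medians −0.86, −2.36 and 0.46), with 5 nuclear calls without nuclear replicate 3.

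Genes of luminal and apocrine identity fell on both sides, 5 nuclear and 4 cytoplasmic of 20 (medians 0.38, −0.86 and 1.65), with 3 nuclear calls without cytoplasmic replicate 3. Both shares, 25% and 20%, were near the 28.1% and 23.5% of all tested genes. ERBB2, the receptor tyrosine kinase HER2, had 5325, 4828 and 14416 nuclear and 1990, 2086 and 1689 cytoplasmic units (1.91 ± 0.39, adjusted p = 0.0037). Its partner ERBB3 had 337, 307 and 509 against 62.4, 65.5 and 9.95 units. XBP1, the transcription factor of the unfolded protein response, had 830, 895 and 1002 against 350, 335 and 95.7 units (2.01 ± 0.46, adjusted p = 0.006). The keratin gene KRT8 had 2761, 2394 and 5840 against 11882, 12446 and 17176 units, and KRT18, which overlaps KRT8 in the annotation, 780, 730 and 887 against 3058, 3325 and 2880 units.

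Cell cycle genes split by list. Of 31 genes of DNA replication and E2F control 10 were nuclear and 11 cytoplasmic (medians 0.40, −1.12 and 1.72). As shares this is 32.3% and 35.5%, against 28.1% and 23.5% of all tested genes. TK1, thymidine kinase, had 671, 735 and 526 nuclear and 48.7, 67.4 and 43.5 cytoplasmic units (3.58), while RRM2, a subunit of ribonucleotide reductase, and GINS2, of the replicative helicase, differed by −1.97 and −3.01. Of 28 genes of mitosis and G2/M 14 were cytoplasmic and 3 nuclear (medians −0.78, −2.31 and 0.55, the last with the opposite sign). Their nuclear count was 1 without nuclear replicate 1 or 2 or without cytoplasmic replicate 1 or 3. AURKA and CCNB2, a mitotic kinase and a mitotic cyclin, differed by −2.21 and −2.41, although AURKA was not called with equal library sums, and CDCA8, a subunit of the chromosomal passenger complex, by 3.46.

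Features of the genes had weaker correlations with the difference than the level had. Genes in the highest quintile of GC content were nuclear in 37.0% and cytoplasmic in 16.4% of cases, against 20.5% and 30.5% in the lowest quintile, with a Spearman correlation of 0.179 across genes. Genes with the most intervals were nuclear in 25.7% and cytoplasmic in 34.4% of cases, against 30.2% and 11.4% for those with the fewest (−0.200). Gene length had a correlation of −0.051. Genes share the libraries and the reads of a library, so these correlations carry no test, and the part of level or depth in the differences was not tested.

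Cells given DMSO divided their new RNA between the fractions in much the same order. Rescaled within its own 6 libraries, the DMSO comparison had 3156 nuclear (31.0%) and 2781 cytoplasmic (27.3%) calls. Of the nuclear genes 1948 were called in both treatments, 68.0% of those under JQ1-VHL and 61.7% of those under DMSO, and of the cytoplasmic genes 2087, 87.0% and 75.0%. A further 29 genes were called in opposite directions, and the Spearman correlation of the 2 differences was 0.814 across genes. AGRN differed by 4.18 under JQ1-VHL and 3.46 under DMSO, RPS12 by −4.30 and −5.11, and HSPA5 by 3.07 and 2.00. The membrane and secreted families had a DMSO median of 1.61 beside 1.93 under JQ1-VHL, and all tested genes 0.30 beside 0.54.

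Whether the difference between fractions itself changed with the drug was tested as an interaction. On the ERCC scale limma called 0 genes in either direction (0.0%), with 1564 at an unadjusted p under 0.05 (15.3%). edgeR also called none, DESeq2 called 24 genes lower and none higher, and limma with a batch block called 8 lower. Without DMSO cytoplasmic replicate 3, 106 genes were called lower. The median interaction on the ERCC scale was −1.60 over all tested genes. The sums of the DMSO cytoplasmic libraries were 8.63, 1.80 and 18.7 M units, and those of the DMSO nuclear libraries 4.86, 2.55 and 2.33. Given this spread, the lack of calls does not show that the balance stayed the same. With all 18 libraries rescaled the counts were 148 (1.45%) with a larger and 140 (1.37%) with a smaller nuclear lean under JQ1-VHL, around a median interaction of 0.13 over all genes, so the calls rest on the rescaling. Of the 310 members of the membrane and secreted families 1 was called in the former and 2 in the latter direction. Among the named genes whose rescaled interaction itself was called, the highest interactions were those of H3C12 (3.13 ± 0.48, adjusted p = 0.0019) and CCNL2 (2.31, adjusted p = 0.0017).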

How the data were processed

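Per the labels' protocols, cytoplasmic, nuclear and total RNA of MDA-MB-453 cells was treated with iodoacetamide, so that 4-thiouridine is read as C in place of T, and libraries were made from polyadenylated RNA. Per the submitters' processing notes the tools were HISAT2, HTSeq, DESeq2, Trimmomatic 0.39 and bcl2fastq and the builds GRCh37/hg19 and dm3, with no roles given. How T-to-C reads were called and counted, and on which strand, is not given in the sources used here, so overlapping and antisense genes cannot be told apart. The deposited table holds ERCC-scaled signal per interval, 98665 intervals of 12755 gene IDs, and all values (100.0%) were whole multiples, within 0.01, of what 1 read is worth. Of the gene IDs 12546 were matched to GENCODE 29, which gave names and GRCh38 coordinates.

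Intervals were summed per gene, and genes with a mean of at least 10 units over 18 libraries were tested (10191 genes, 99.8% of the sum). limma 3.58.1 (R 4.3.3, trend and robust) was fitted to log2(value + 1), on the ERCC scale over 18 libraries in 6 groups and, rescaled by median-of-ratios factors, over the 6 JQ1-VHL libraries, with Benjamini-Hochberg adjustment and a threshold of 0.05. Fold changes on this scale understate those of low genes. edgeR 4.0.16 and DESeq2 1.42.0 were run on the recovered reads as alternatives. On simulated counts the rescaled test recovered 100, 100, 100 and 98% of genes changed by log2 2, 3, −2 and −3, and called 0.04% of unchanged genes. There only 50 well covered genes of each size were changed among 10172, with the same spread beyond counting error for every gene. The real fractions differ in many more genes (2863 and 2399 calls), and nuclear replicate 3 lies apart. These rates therefore do not give the error rate in the data. Reads were amplified and carry no molecular identifiers, so they are not independent molecules and intervals cover counting error only.

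Named genes are the 12 highest and 12 lowest rescaled differences with at least 30 mean reads, called and without overlap, the 6 highest noncoding ones, the 2 highest and 2 lowest of each of 24 lists, a preset list of genes, and the 8 highest on the ERCC scale. After the values were seen, the 12 highest and lowest with at least 300 mean reads and the 12 lowest among IDs in GENCODE 29 were added. Other genes outside this rule are said to be chosen after their values were seen. Some genes that this rule names are not reported here. The comparison and the lists were chosen with earlier results of these data known.

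The labels do not say whether replicates are separate cultures, so p-values reflect the spread of these libraries alone, which may be technical. The labels' batch number equals the replicate number, which pairs the libraries. Deviations of same-numbered nuclear and cytoplasmic libraries correlated by 0.095, 0.093 and 0.167 on the rescaled basis. Libraries with unlike numbers among replicates 1 and 2 correlated nearly as much (0.084 and 0.081), so these values do not tell those pairs apart. Replicate 3 against the others gave −0.141 to −0.106.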

Additional observations from a re-analysis of the deposited data

Results flagged for a closer look

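For 11 of 161 named genes the difference between fractions differed between JQ1-VHL and DMSO in the rescaled test of the interaction over 18 libraries. Over all 10191 tested genes 148 (1.45%) were called higher and 140 (1.37%) lower. Many named genes were chosen for an extreme difference under JQ1-VHL, which also enters the interaction. The 11 are therefore a description and not an independent test. No gene passed limma's interaction test on the ERCC scale, where the wide spread of the DMSO cytoplasmic libraries limits what can be detected. The following values are rescaled log2 interactions, the difference under JQ1-VHL minus that under DMSO, with limma's adjusted p.

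The nuclear lean was larger under JQ1-VHL for H3C12, a replication histone gene (3.13, adjusted p = 0.0019, from 3.89 under JQ1-VHL and 0.67 under DMSO). The same held for CCNL2, the speckle cyclin (2.31, adjusted p = 0.0017, from 3.48 and 1.07), and XBP1, the unfolded protein response factor (2.05, adjusted p = 0.037, from 2.01 and −0.14). EBP, the sterol isomerase, had 1.71 (adjusted p = 0.036, from 3.74 and 1.95), and ZNF320 had 1.63 (adjusted p = 0.048, from 2.45 and 0.73). H2BC12, a histone gene that was not called under JQ1-VHL, had 1.70 (adjusted p = 0.0063, from 0.53 and −1.27).

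For 3 genes the cytoplasmic lean was smaller under JQ1-VHL. KRT18, a luminal keratin, had 1.26 (adjusted p = 0.041, from −1.95 and −3.31), MCL1, an anti-apoptotic protein with a short-lived mRNA, 1.08 (adjusted p = 0.050, from −0.58 and −1.76), and ACTB 0.89 (adjusted p = 0.046, from −2.55 and −3.54). In the other direction SPDEF, a luminal transcription factor, had −2.43 (adjusted p = 0.045, from 0.64 and 2.98), and AKIP1 had −3.75 (adjusted p = 0.028, from −4.62 and −1.25).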

How the results depend on the processing

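Of 139 named calls of the rescaled test, DESeq2 and edgeR each kept 138, fits without 1 library 131 to 135, equal library sums 127, and the highest interval in place of the sum 128. Of 36 calls among genes named after their values were seen, these kept 36, 36, 35 to 36, 31 and 35. The replicate block, which pairs libraries of a batch, gave 2994 nuclear and 2493 cytoplasmic calls and kept all 139 and 36; on the ERCC scale it gave 455 and 3165, and for the interaction 0 and 8.

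The 307 higher genes of the ERCC scale were 562 with the highest interval, 501 with a pseudocount of 0.1, 94 with a pseudocount of 10, and 55 to 609 without 1 library. They were 74, 55 and 609 without nuclear replicate 1, 2 and 3 and 151 without cytoplasmic replicate 3. The 2938 lower genes were 1967 to 3041 without 1 library, 3335 with DESeq2, 3299 with only the 6 libraries and 3247 with the highest interval. The rescaled counts of 2863 and 2399 were 1926 to 2899 and 2048 to 2612 without 1 library, 5656 and 963 with equal library sums, and 784 and 660 over the 3026 genes without overlapping genes, where fewer genes were tested. The interaction count of 0 higher was 148 after rescaling. The 0 lower were 140 after rescaling, 24 with DESeq2, 8 with the block, 3 with the highest interval and 0 to 106 without 1 library, namely 8, 2 and 106 without DMSO cytoplasmic replicate 1, 2 and 3. The cause was not tested.

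Equal library sums turned the sign of NXF1 (1.22), GAS5 (1.05), GATA3 (0.82), SON (0.81), MCL1 (0.76), CCAR1 (0.74), HMGCS1 (0.62), COL1A1 (0.57), EEF1A1 (0.49), NFKBIA (0.48), SNHG14 (0.37), OIP5-AS1 (0.19), SRSF7 (0.18), SRP72 (0.13), HSP90AB1 (0.0818) and ALYREF (0.0022). The highest interval turned OIP5-AS1 (0.58) and GABPB1 (0.36). Depth limits the genes with few cytoplasmic reads, and nuclear replicate 3, with 1.58 M reads, limits the low end of the nuclear side.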
